A study of Mus musculus with 36 samples.

Results

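The genes described here are 10 genes of the endoplasmic reticulum (ER) stress response, also called the unfolded protein response: Hspa5, Hsp90b1, Hyou1, Dnajb9, Pdia4, Calr, Herpud1, Xbp1, Atf4 and Ddit3. They were named by symbol and taken from a table of raw read counts, in which each of 16812 genes was represented by its RefSeq transcript row with the highest total count. All 10 were found, and all 10 were among the 11953 genes with enough reads to be tested. The RNA came from the peripheral blood of Townes mice, a sickle cell strain in which human globin genes, with the sickle form of beta-globin, stand in place of the mouse ones. Every group carried this genotype, and every group received either a scrambled control or MIR29B, a microRNA of the miR-29 family, at 2 or 3 mg/kg through a mini-osmotic pump. The sampling weeks were 0, 2 and 4, which gave 12 groups of 3 libraries and 36 libraries in all, and globin mRNA was removed before sequencing. The series was set up to test intermittent MIR29B dosing for the induction of fetal haemoglobin. No untreated or non-sickle group was analysed here. It is not stated if the same mice were bled in more than 1 week, if the week 0 blood preceded dosing, or that the libraries of a group came from separate mice, so the p-values measure the spread between libraries.

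The unfolded protein response is set off when unfolded proteins build up in the ER. Sensors in the ER membrane start it: IRE1 splices the mRNA of the transcription factor XBP1, PERK phosphorylates the initiation factor eIF2α and so favours translation of ATF4 and then of CHOP (the product of Ddit3), and ATF6 is cut to release a transcription factor. Together these factors raise ER chaperones, folding enzymes and the machinery that returns misfolded proteins to the cytosol for degradation. In red cell precursors the eIF2α branch is also driven by a haem-regulated kinase, EIF2AK1, and Xbp1 is known for its part in the differentiation of plasma cells. The deposited values are mRNA levels in blood; splicing of Xbp1 was not measured, because its 2 transcript rows held nearly the same counts (the lower total was 99.69% of the higher).

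The upstream sequences of 4 members are shown because they hold the elements through which ATF6, XBP1 and the ATF4 family are known to act on these genes. A search on both strands covered the ER stress response element (ERSE), its shorter form ERSE-II, the core of the unfolded protein response element (UPRE, TGACGTGG) and the C/EBP-ATF composite element (TGATGCAA), in RefSeq promoter sequences of GRCm38.p6 running from 250 bases before to 50 after each gene start. ERSE was found in 39 of 32851 promoters (0.119%), and 3 of the 9 members with a promoter entry held it: Hspa5, Calr and, with 2 matches, Hsp90b1. ERSE-II was found in 12 promoters (0.037%), that of Herpud1 among them. Herpud1 also held the C/EBP-ATF composite element, which 294 promoters (0.895%) had. The UPRE core was in 222 promoters (0.676%) and in none of the 9 members. Hyou1 had no entry. The 250 upstream bases follow, with matches in capitals; they lie at chr2:34771840-34772089 on the plus strand for Hspa5, chr8:84846932-84847181 on the minus strand for Calr, chr10:86705445-86705694 on the minus strand for Hsp90b1 and chr8:94386179-94386428 on the plus strand for Herpud1.
Hspa5: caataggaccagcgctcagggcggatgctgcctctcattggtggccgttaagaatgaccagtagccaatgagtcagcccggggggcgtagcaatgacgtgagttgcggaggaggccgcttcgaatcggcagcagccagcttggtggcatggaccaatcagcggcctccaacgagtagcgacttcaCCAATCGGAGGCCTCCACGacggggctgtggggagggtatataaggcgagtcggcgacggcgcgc
Calr: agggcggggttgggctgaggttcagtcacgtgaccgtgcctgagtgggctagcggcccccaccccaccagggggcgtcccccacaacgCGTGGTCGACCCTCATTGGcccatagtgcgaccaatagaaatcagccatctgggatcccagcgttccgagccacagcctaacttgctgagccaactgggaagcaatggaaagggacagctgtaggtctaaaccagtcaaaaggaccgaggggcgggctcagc
Hsp90b1: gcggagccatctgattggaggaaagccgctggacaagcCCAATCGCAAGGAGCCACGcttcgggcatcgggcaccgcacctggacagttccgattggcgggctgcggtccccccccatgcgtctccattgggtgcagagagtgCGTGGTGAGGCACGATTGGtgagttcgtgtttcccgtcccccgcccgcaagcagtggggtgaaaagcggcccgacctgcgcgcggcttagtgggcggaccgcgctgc
Herpud1: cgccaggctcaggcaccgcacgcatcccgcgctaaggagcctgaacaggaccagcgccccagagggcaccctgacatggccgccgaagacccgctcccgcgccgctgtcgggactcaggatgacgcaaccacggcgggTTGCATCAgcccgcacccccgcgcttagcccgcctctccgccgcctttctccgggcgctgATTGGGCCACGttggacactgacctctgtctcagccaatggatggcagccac
In Herpud1 the match nearer the gene, from base -52 to -42, is ERSE-II and the farther one, from -112 to -105, is the composite element read from the other strand. The ERSE of Hspa5 lies from base -65 to -47. A match is a description of these letters and not a measured binding site. The elements were searched because they are known from such genes, so the shares of all promoters are no test of enrichment.

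MicroRNAs of the miR-29 family act directly on mRNAs that pair with their seed, so the sequence is shown with the seed in capitals, to set it beside the members' mRNAs. The mature mouse form in RefSeq, at chr6:31063025-31063047 on the minus strand of GRCm38.p6, is as follows; the labels do not give the sequence that was dosed.
mmu-miR-29b-3p: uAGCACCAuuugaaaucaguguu
The matching sites, TGGTGCT and the longer TGGTGCTA, were looked for in the annotated 3′ untranslated regions of the tested genes. Of 11198 tested genes with such a region, 2137 (19.1%) held at least the shorter site. None of the 10 members did. No match says only that these letters are not in these regions.

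Per library, 6.82 M to 31.72 M reads were counted on genes (median 19.1 M, M standing for mega). The label calls the cells erythrocytes, and the erythroid marker list, led by Alas2 at 5.32 to 13.6% of all counts, summed to 64700 to 157000 CPM, which are counts scaled to a common library size. Markers of neutrophils (178 to 3000 CPM), monocytes (202 to 1860), platelets (150 to 1230) and B, T, NK and plasma cells were detected too, and no marker listed was at 0 in all 36 libraries. Some libraries stood apart. Ribosomal RNA took 2.17 to 21.66% of counts. It was taken as Rn28s1 with all rows that had no symbol and a RefSeq name for non-coding RNA. Whether each of these rows is ribosomal was not checked. By this measure 7 libraries were over 5%, of which 2, replicates 2 and 3 of the week 2, 2 mg/kg MIR29B group, were over 10%. Ribosomal protein genes took over 10% of counts in 3 libraries: replicate 1 of the week 2, 3 mg/kg scrambled group (15.6%) and replicates 2 and 3 of the week 0, 2 mg/kg MIR29B group (12.3% and 10.2%). The week results below are also given without them; where this leaves a group with 1 library, that library is assumed to vary like the others. In blood, fewer cells of a type and less RNA per cell cannot be told apart.

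On a scale of CPM per kilobase of transcript, the median levels over the 36 libraries ran from Atf4 (112.9), through Xbp1 (38.37), Calr (38.31), Hspa5 (28.19), Hsp90b1 (13.67), Herpud1 (7.91), Pdia4 (5.71), Dnajb9 (4.92) and Ddit3 (3.34), to Hyou1 (1.37). The range over libraries of each gene overlapped that of the next one in this order. All genes were read in the same libraries, so overlap of ranges cannot show whether neighbours differed. No difference between neighbours was tested. Ddit3 and Hyou1 rested on the fewest reads, with medians of 50 and 111 counts per library and lowest counts of 20 and 18. The level of Ddit3 in CPM varied most, 26.6-fold between the lowest and the highest library, and that of Hsp90b1 least, 3.17-fold.

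**Figure D1:**
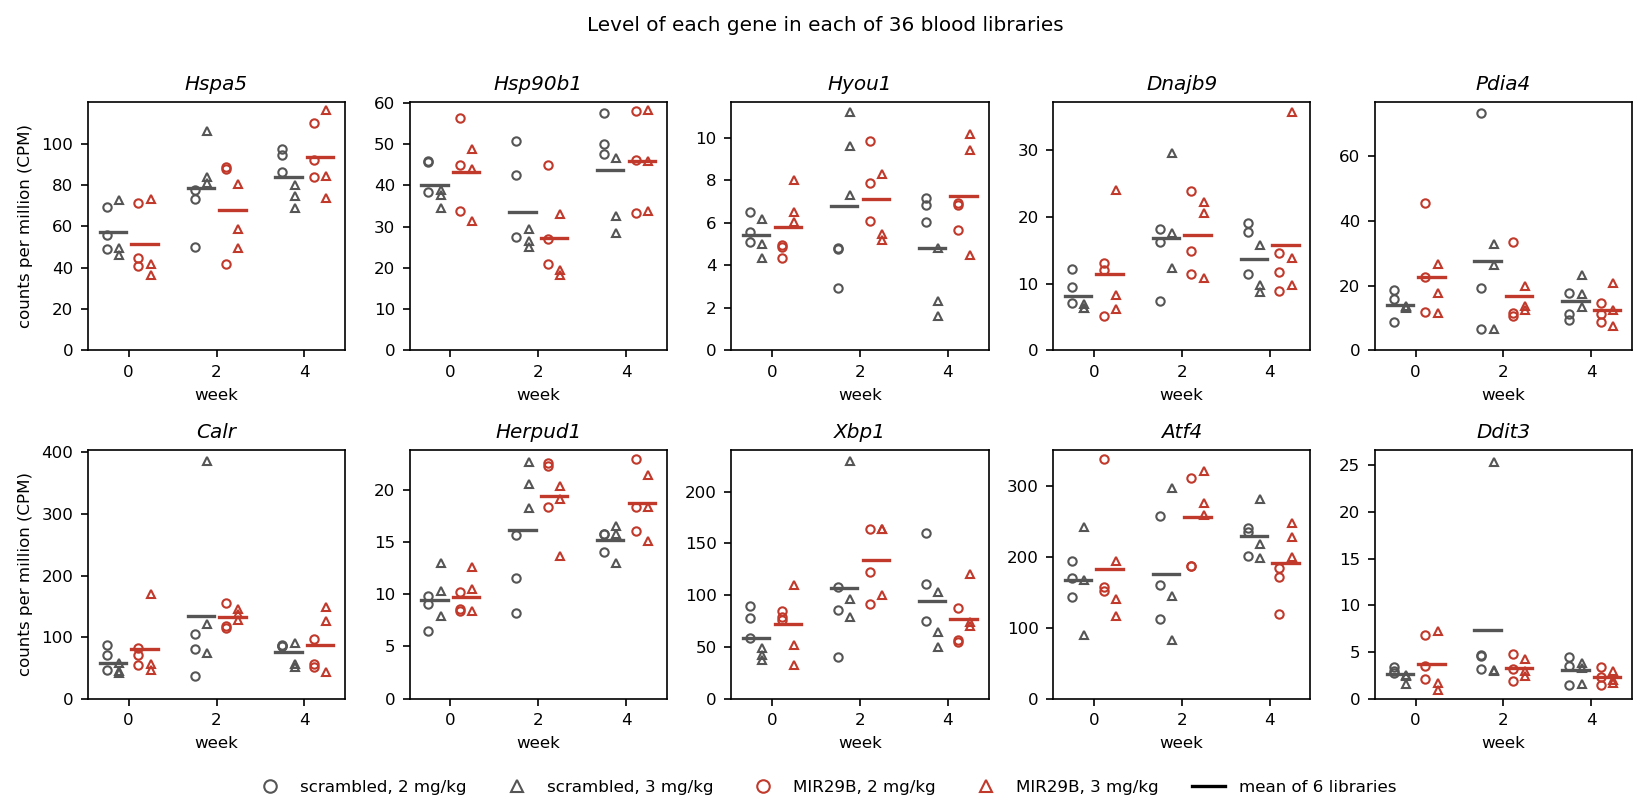
Each panel plots 1 gene: week on the x axis, CPM on the y axis from 0, 1 point per library (circles 2 mg/kg, triangles 3 mg/kg; grey scrambled, red MIR29B), and a bar at the mean of the 6 libraries of an arm. Herpud1 sits at 6.53 to 13 at week 0 and mostly higher at weeks 2 and 4, while single scrambled libraries at week 2 carry the highest Calr (386), Ddit3 (25.4), Xbp1 (230) and Pdia4 (73.2).

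The comparison of weeks asked how these genes stood at weeks 2 and 4 against week 0, over both arms and doses (12 against 12 libraries). At week 2, 4 of the 10 members had risen (Herpud1, Xbp1, Calr and Dnajb9) and 1 had fallen (Hsp90b1), while 15.9% of all tested genes were called, 1032 higher and 864 lower. At week 4 Herpud1 and Hspa5 were higher than at week 0 and none was lower, against 6.08% of all genes. The members' median log2 fold change was 0.50 at week 2 and 0.25 at week 4, beside -0.03 and -0.04 over all genes tested. The members were chosen with earlier results of these data known, so this contrast is a description. Calls are at an adjusted p below 0.05 in edgeR's quasi-likelihood test with Benjamini-Hochberg adjustment over all 11953 genes, and errors of log2 fold changes are standard errors.

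**Figure D2:**
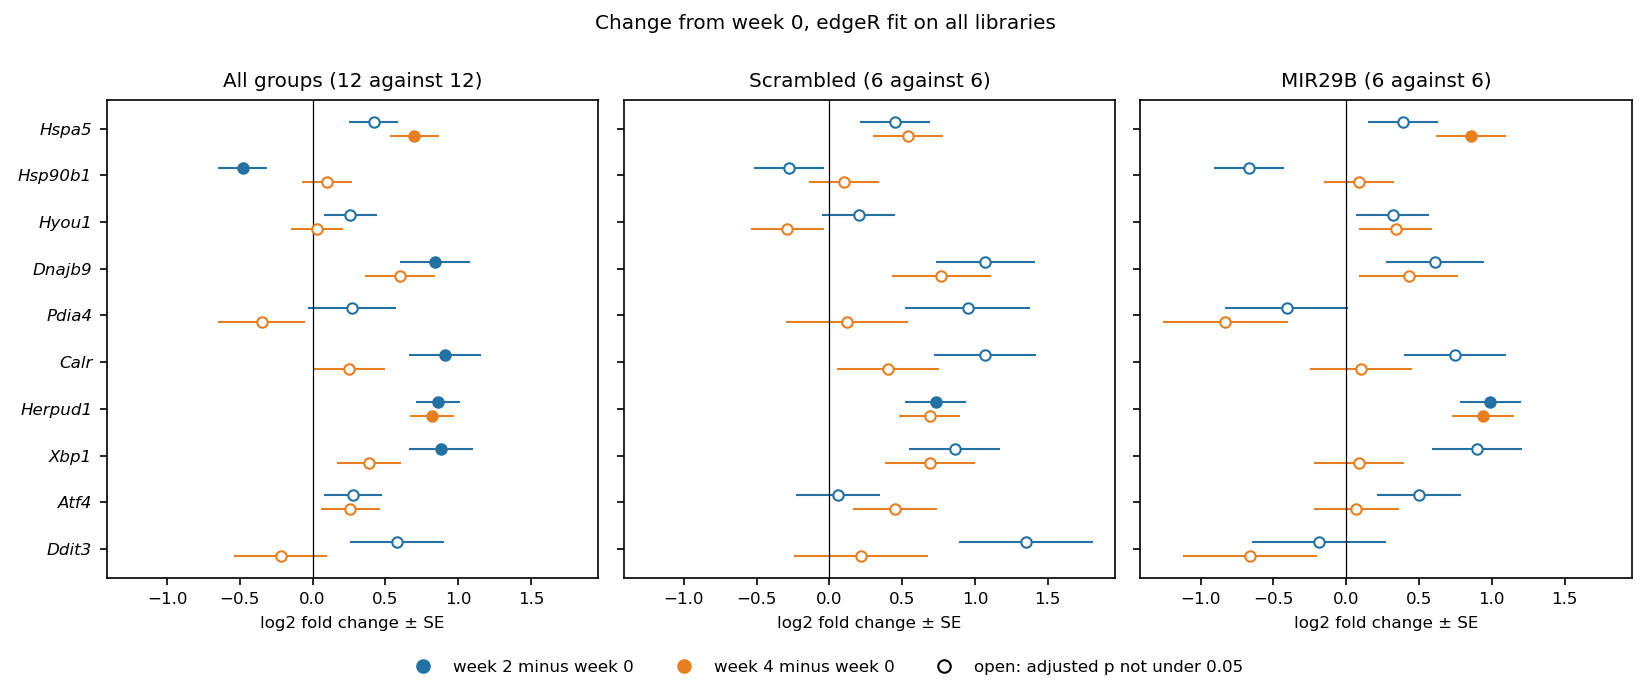
Log2 fold change from week 0 (x axis, with SE bars) of each gene (y axis) at week 2 (blue) and week 4 (orange), over all groups and within each arm; filled points have an adjusted p below 0.05. Herpud1 lies between 0.69 and 0.99 in every panel, and Hsp90b1 at week 2 is the only filled point below 0.

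Herpud1 (chr8:94386429-94395371) codes for a membrane protein of the ER that takes part in ER-associated degradation. Its level had a lowest, median and highest value of 6.53, 9.46 and 13 CPM at week 0, against 8.19, 18.8 and 22.7 in the week 2 libraries and 13, 16.0 and 23.0 in those of week 4. At week 2, 10 of 12 libraries were above the highest week 0 library; the exceptions were 11.6 and 8.19 CPM, both scrambled at 2 mg/kg. At week 4 all 12 were above it, the lowest by less than the precision given (13 CPM). The mean rose from 9.61 ± 1.87 CPM (SD, n = 12) to 17.8 ± 4.64 and 17.0 ± 2.91, log2 fold changes of 0.86 ± 0.15 (adjusted p = 0.000176) and 0.82 ± 0.15 (adjusted p = 0.000409). Both calls held under each of the 11 alternative settings tried and without each of the 24 libraries in turn, with adjusted p-values from 5.09e-08 to 0.00462 at week 2 and from 4.91e-07 to 0.0243 at week 4.

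Among the chaperones, Hspa5 (chr2:34772090-34776529) codes for BiP, the main HSP70 chaperone of the ER lumen and the protein that holds the sensors inactive. Its lowest, median and highest levels were 36.5, 49.4 and 73.4 CPM at week 0, against 41.6, 78.8 and 106 in the week 2 libraries and 69.0, 85.4 and 116 in those of week 4. At week 4, 11 of 12 libraries were above the highest of week 0. The rise at week 4 was 0.70 ± 0.17 on the log2 scale (adjusted p = 0.00919). At week 2 the value was 0.42 ± 0.17 and did not pass (adjusted p = 0.087; 0.0383 with DESeq2 and 0.0382 without replicate 2 of the week 0, 3 mg/kg MIR29B group). Without the 7 libraries over 5% ribosomal RNA the week 4 value was 0.67 and its call was lost (adjusted p = 0.117).

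Hsp90b1 (chr10:86690841-86705444), which codes for the ER form of HSP90, GRP94, went the other way at week 2. Its lowest, median and highest levels were 31.4, 41.3 and 56.2 CPM at week 0, against 18.3, 27.1 and 50.6 in the week 2 libraries and 28.4, 46.3 and 58.1 in those of week 4. At week 2, 8 of 12 libraries were below the lowest of week 0. The difference was -0.48 ± 0.17 (adjusted p = 0.0484) and lay close to the threshold: it did not pass under 7 of the 11 alternatives, or when any 1 of 17 of the 24 libraries was left out (adjusted p from 0.0503 to 0.103). Those libraries were the week 0 libraries other than replicate 1 of both MIR29B groups, and 7 week 2 libraries: scrambled replicate 3 and MIR29B replicates 1 and 3 at 2 mg/kg, and scrambled replicates 2 and 3 and MIR29B replicates 1 and 3 at 3 mg/kg. At week 4 it stood at 0.10 ± 0.17 against week 0. Across the 36 libraries its log2 CPM had a Pearson r of 0.53 with the summed NK cell markers, whose median was 31.5 CPM at week 0, 14.3 at week 2 and 31.9 at week 4 (range over all libraries 2.39 to 78.6, none of the 6 markers at 0 throughout); their part in the result was not tested.

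Calr (chr8:84842088-84846931) codes for calreticulin, a calcium-binding chaperone of glycoproteins. Its lowest, median and highest levels were 41.1, 56.9 and 170 CPM at week 0, against 36.8, 119 and 386 in the week 2 libraries and 43.9, 85.2 and 149 in those of week 4. The groups overlapped, and 11 of 12 week 2 libraries were above the week 0 mean of 69.1. It rose by 0.91 ± 0.25 on the log2 scale at week 2 (adjusted p = 0.0113) and stood at 0.25 ± 0.25 at week 4 (adjusted p = 0.637). The week 2 call was lost without the 3 libraries rich in ribosomal protein reads (0.77, adjusted p = 0.0612) and without the 7 rich in ribosomal RNA (0.94, adjusted p = 0.0707).

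Dnajb9 (chr12:44205897-44210068) codes for ERdj4, an ER co-chaperone of BiP. Its lowest, median and highest levels were 5.10, 7.73 and 24.0 CPM at week 0, against 7.46, 16.8 and 29.5 in the week 2 libraries and 8.78, 12.7 and 35.6 in those of week 4. It rose by 0.84 ± 0.24 at week 2 (adjusted p = 0.0166), with 11 of 12 libraries above the week 0 mean of 9.76. At week 4 the value was 0.60 ± 0.24 (adjusted p = 0.147; 0.81 and 0.0323 without replicate 2 of the week 0, 3 mg/kg MIR29B group). The week 2 call was lost without the 7 libraries over 5% ribosomal RNA (0.86, adjusted p = 0.0815) and without the 2 over 10% (0.80, adjusted p = 0.0573).

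The other chaperones did not pass in either week. Hyou1 (chr9:44379490-44392369), which codes for GRP170, an HSP70-like chaperone and exchange factor of BiP, had medians of 5.34, 6.69 and 6.45 CPM at weeks 0, 2 and 4 and log2 fold changes of 0.26 ± 0.18 and 0.03 ± 0.18. Pdia4 (chr6:47796141-47813512), which codes for the protein disulfide isomerase ERp72, had medians of 14.9, 16.5 and 12.9 CPM and log2 fold changes of 0.27 ± 0.30 and -0.35 ± 0.30. The week 2 value of Pdia4 rested on 1 library, replicate 3 of the 2 mg/kg scrambled group at 73.2 CPM, without which it was -0.07.

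Of the transcription factors, Xbp1 (chr11:5520641-5525993) rose at week 2. Its lowest, median and highest levels were 32.6, 67.1 and 110 CPM at week 0, against 40.0, 104 and 230 in the week 2 libraries and 49.9, 74.6 and 160 in those of week 4. The groups overlapped, and 11 of 12 week 2 libraries were above the week 0 mean of 65.5. The log2 fold change was 0.88 ± 0.22 at week 2 (adjusted p = 0.00584) and 0.39 ± 0.22 at week 4 (adjusted p = 0.331). Without the 3 libraries rich in ribosomal protein reads the week 2 value was 0.72 and did not pass (adjusted p = 0.0592), nor did it without the 7 rich in ribosomal RNA (0.88, adjusted p = 0.0543). The markers of plasma cells, a cell type in which Xbp1 is high, summed to a median of 28.0 CPM at week 0, 39.7 at week 2 and 29.2 at week 4. None of the 8 was called higher or lower at week 2, where 6 had a log2 fold change above 0 and 2 an unadjusted p below 0.05 in edgeR. Xbp1 had r = 0.07 with their sum over the 36 libraries. The part of plasma cells in the Xbp1 result was not tested.

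Atf4 (chr15:80255184-80257545) was the most abundant member and did not pass in either week. Its medians were 162, 223 and 210 CPM at weeks 0, 2 and 4, with log2 fold changes of 0.28 ± 0.20 (adjusted p = 0.363) and 0.26 ± 0.20 (adjusted p = 0.537). Ddit3 (chr10:127290793-127296291), which codes for the pro-apoptotic factor CHOP, had medians of 2.66, 3.12 and 2.65 CPM. Its week 2 value of 0.58 ± 0.32 (adjusted p = 0.22) was 0.12 without replicate 1 of the 3 mg/kg scrambled group (25.4 CPM), and 0.91 with an adjusted p of 0.0387 without replicate 2 of the week 0, 3 mg/kg MIR29B group (7.29 CPM).

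Between week 4 and week 2 no member passed in edgeR, against 1.16% of all tested genes; 5 members had an unadjusted p below 0.05, and DESeq2 called 1, Hsp90b1. Hsp90b1 had the smallest adjusted p (0.0741), at 0.57 ± 0.17 higher at week 4; it passed when any 1 of 4 week 2 libraries was left out (adjusted p from 0.0393 to 0.0464), which were replicates 1 and 2 of the 2 mg/kg scrambled group and replicate 2 of each MIR29B group. Calr stood at -0.66 ± 0.25 (adjusted p = 0.149), Pdia4 at -0.62 ± 0.30 (adjusted p = 0.262), Xbp1 at -0.48 ± 0.22 (adjusted p = 0.224) and Ddit3 at -0.80 ± 0.32 (adjusted p = 0.178). None of these 5 differences passed the adjusted threshold.

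Neutrophil markers moved with the weeks as well. Their summed level had a lowest, median and highest value of 178, 462 and 1260 CPM at week 0, against 785, 1070 and 3000 in the week 2 libraries and 451, 991 and 1700 in those of week 4. Of the 12 markers, 9 were called higher at week 2 and 3 at week 4, with none lower and none at 0 in all libraries. Over the 36 libraries the log2 CPM of Herpud1 had r = 0.49 with this sum, and that of Hspa5 0.38. The values were 0.25 for Xbp1, 0.27 for Dnajb9, 0.17 for Calr and -0.38 for Hsp90b1. Members called in neither week had 0.35 (Ddit3), 0.04 (Pdia4), 0.01 (Atf4) and -0.10 (Hyou1). Monocyte markers had medians of 391, 509 and 624 CPM at weeks 0, 2 and 4, with 1 of 8 called higher in each of the later weeks. Their sum had r = 0.50 with Hspa5 and 0.44 with Herpud1. With the other members r was below 0. It was -0.04 for Hyou1 and Dnajb9, -0.06 for Ddit3 and -0.10 for Hsp90b1. Xbp1 had -0.15, Calr -0.18, Atf4 -0.36 and Pdia4 -0.43. These are descriptions over libraries that share the weeks. The part of neutrophils and monocytes in the members' week differences was not tested.

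Within the arms (6 against 6 libraries), Herpud1 was the member called most often. In the MIR29B arm at week 2, 1 of the 10 members was called, against 5.37% of all tested genes: Herpud1 had a lowest, median and highest level of 8.37, 9.41 and 12.6 CPM at week 0 and of 13.7, 19.8 and 22.6 at week 2. These groups did not overlap, and the log2 fold change was 0.99 ± 0.21 (adjusted p = 0.00462). At week 4 in this arm 2 were called, against 3.02% of all genes. Herpud1 stood at 15.1, 18.4 and 23.0 CPM (0.94 ± 0.21, adjusted p = 0.00692), and Hspa5 at 73.9, 88.3 and 116 CPM against 36.5, 43.4 and 73.4 at week 0 (0.86 ± 0.24, adjusted p = 0.0412). Neither gene's groups overlapped, and the share of all genes without overlap was not computed. Without the 3 libraries rich in ribosomal protein reads, which include 2 of the 6 week 0 libraries of this arm, Herpud1 stood at 1.05 and 0.99 and no longer passed (adjusted p = 0.0658 and 0.125), nor did it without the 7 rich in ribosomal RNA (1.02 and 0.88, adjusted p = 0.079 and 0.157). The Hspa5 call was lost under 8 of 11 alternatives and when any 1 of 9 of the 12 libraries was left out (adjusted p from 0.069 to 0.167), which were replicates 1 and 2 at 2 mg/kg and 1 and 3 at 3 mg/kg of week 0, and all of week 4 but replicate 2 at 3 mg/kg.

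In the scrambled arm at week 2, 1 member was called, against 3.1% of all tested genes. Herpud1 again passed, at 6.53, 9.46 and 13 CPM at week 0 and 8.19, 17.0 and 22.7 at week 2, with overlap (0.73 ± 0.21, adjusted p = 0.0482); this call was lost under 7 of 11 alternatives and when any 1 of 10 of the 12 libraries was left out (adjusted p from 0.0574 to 0.159). It was kept without replicate 3 of the week 0, 3 mg/kg group and without replicate 1 of the week 2, 2 mg/kg group. At week 4 none passed in edgeR, against 0.427% of all genes, although 4 members had an unadjusted p below 0.05 and DESeq2 called Herpud1 (adjusted p = 0.0316). Its lowest, median and highest week 4 levels were 13, 15.8 and 16.6 CPM. All 6 libraries were above the highest of week 0, the lowest by less than the precision given. The edgeR value was 0.69 ± 0.21 (adjusted p = 0.182). Ddit3 at week 2 in this arm stood at 1.35 ± 0.46 (adjusted p = 0.0921), or 0.43 without replicate 1 at 3 mg/kg; Calr stood at 1.07 ± 0.35 (adjusted p = 0.082), or 0.56 without that library.

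A difference between the arms in the change from week 0 was tested directly. None of the 10 members passed at either week, and 0% of the 11953 genes did; at an unadjusted p below 0.05 there were 2 members at week 2 and 0 at week 4, and DESeq2 called no member. The interval of the difference (MIR29B minus scrambled, 95%) for Herpud1 was -0.32 to 0.84 at week 2 and -0.33 to 0.83 at week 4, and for Hspa5 -0.72 to 0.61 and -0.35 to 0.98. The members at an unadjusted p below 0.05 were Ddit3 (-1.54 ± 0.65, adjusted p = 0.893) and Pdia4 (-1.36 ± 0.60, adjusted p = 0.893), whose highest week 2 libraries were both scrambled. Without the Ddit3-rich library its difference was -0.61, and without the Pdia4-rich one the Pdia4 difference was -0.69.

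The comparison of MIR29B with scrambled at the same week asked whether the microRNA changed these genes. Over both doses (6 against 6 libraries), none of the 10 members was called at week 0, 2 or 4, and 0% of the 11953 genes were called at any of the 3 weeks; at an unadjusted p below 0.05 there were 0, 1 and 1 members and 825, 1164 and 304 genes, and DESeq2 called no member. At week 2 the smallest unadjusted p was that of Ddit3 (0.0298; -1.03 ± 0.46, adjusted p = 0.453), whose difference was -0.08 without replicate 1 of the 3 mg/kg scrambled group. At week 4 it was that of Hyou1 (0.00931; 0.70 ± 0.25, adjusted p = 1), with a lowest, median and highest level of 4.51, 6.89 and 10.2 CPM against 1.62, 5.44 and 7.19. For Herpud1 the 95% intervals of the log2 difference were -0.36 to 0.46 at week 0, -0.10 to 0.72 at week 2 and -0.11 to 0.71 at week 4. For Hspa5 they were -0.62 to 0.32, -0.67 to 0.27 and -0.30 to 0.64. All 6 intervals included 0. No neutrophil or monocyte marker was called between the arms in edgeR at any week, but their levels were lower with MIR29B in the median. The 12 neutrophil markers had a median log2 difference of -0.99 at week 0, -0.65 at week 2 and -0.59 at week 4, with 7, 4 and 2 at an unadjusted p below 0.05. For the 8 monocyte markers the medians were -0.59, -0.89 and -0.14, with 2, 4 and 0. At week 2 the summed neutrophil level had a lowest, median and highest value of 885, 2160 and 3000 CPM with scrambled and 785, 951 and 1730 with MIR29B, with overlap. The part of these cells in the members' values was not tested.

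**Figure D3:**
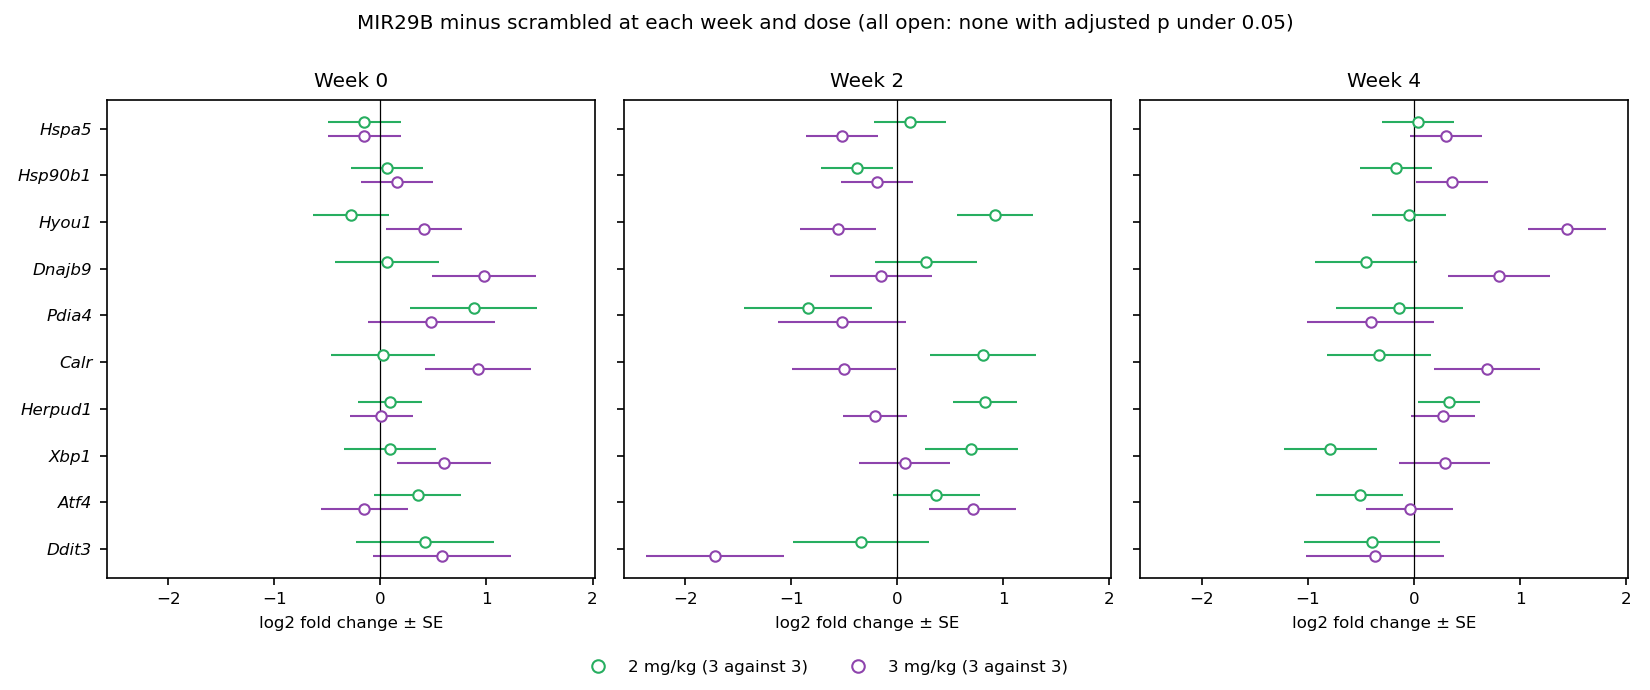
Log2 fold change of MIR29B against scrambled (x axis, with SE bars) for each gene (y axis) at weeks 0, 2 and 4, at 2 mg/kg (green) and 3 mg/kg (purple), 3 against 3 libraries each. All points are open, since none had an adjusted p below 0.05; the farthest from 0 are Ddit3 at week 2, 3 mg/kg (-1.72) and Hyou1 at week 4, 3 mg/kg (1.44).

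At each dose alone (3 against 3 libraries), no member was called in any of the 6 comparisons, and 0% of all genes were in each of them. Unadjusted p-values below 0.05 were found for 0 members at either dose of week 0, for 2 at week 2 and 2 mg/kg, for 1 at week 2 and 3 mg/kg, for 0 at week 4 and 2 mg/kg and for 1 at week 4 and 3 mg/kg, beside 547, 388, 971, 843, 269 and 377 of all genes in the same order, and DESeq2 called no member. Hyou1 at week 4 and 3 mg/kg had the smallest unadjusted p of all 11953 genes in its comparison (0.000365; 1.44 ± 0.37, adjusted p = 1). Its libraries read 9.44, 4.51 and 10.2 CPM with MIR29B and 4.81, 1.62 and 2.33 with scrambled. The groups overlapped at 4.51 and 4.81, and the scrambled libraries at 1.62 and 2.33 were the 2 lowest of all 36 for this gene. Ddit3 at week 2 and 3 mg/kg read 2.38, 2.96 and 4.25 CPM with MIR29B and 25.4, 3.05 and 2.99 with scrambled (-1.72 ± 0.65, adjusted p = 0.647), and the difference turned to 0.15 without the library at 25.4. At 2 mg/kg of week 4 Hyou1 read 5.67, 6.86 and 6.92 against 6.85, 6.06 and 7.19, a difference of -0.05 ± 0.35.

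At week 2 and 2 mg/kg, Herpud1 read 22.3, 22.6 and 18.4 CPM with MIR29B and 11.6, 15.7 and 8.19 with scrambled, without overlap (0.83 ± 0.30, adjusted p = 0.451). Hyou1 read 7.90, 9.86 and 6.08 against 4.78, 4.82 and 2.95, also without overlap (0.92 ± 0.36, adjusted p = 0.478). Calr did not overlap either, at 115 to 156 CPM with MIR29B and 36.8 to 105 with scrambled. At 3 mg/kg in the same week the order was not the same. Herpud1 read 19.2, 13.7 and 20.4 against 18.3, 20.6 and 22.7 (-0.21 ± 0.30), and Hyou1 read 5.18, 8.31 and 5.49 against 11.2, 7.30 and 9.64 (-0.56 ± 0.36). Hspa5 did not overlap there and was lower with MIR29B (49.4 to 80.2 against 81.1 to 106 CPM). At 2 mg/kg in other weeks, Hyou1 at week 0 and Atf4 at week 4 were lower with MIR29B without overlap. Herpud1 at week 4 was higher without overlap. Such small groups can lie apart by chance, and the share of all genes without overlap was not computed. The difference between the doses in the MIR29B effect was tested at weeks 2 and 4: no member passed, and 0% of all genes did in both, with 2 and 1 members at an unadjusted p below 0.05 and none called by DESeq2. It was -1.48 ± 0.51 for Hyou1 (adjusted p = 0.726) and -1.04 ± 0.42 for Herpud1 (adjusted p = 0.816) at week 2, and 1.49 ± 0.51 for Hyou1 at week 4 (adjusted p = 1).

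The other genes of the pathway were examined in 6 lists, whose counts are to be read against the 15.9% of all tested genes called at week 2 and the 6.08% called at week 4; no difference between lists, or between a list and all genes, was tested. Of 15 sensors and regulators, 4 were called higher and 0 lower at week 2, with a median of 0.19: Ern1, which codes for the sensor IRE1α (1.16 ± 0.27, adjusted p = 0.00405), Ppp1r15a, which codes for GADD34, the stress-induced eIF2α phosphatase subunit (1.14 ± 0.24, adjusted p = 0.00148), its constitutive counterpart Ppp1r15b (0.62 ± 0.21) and Tmbim6, an ER membrane protein that restrains IRE1 (0.81 ± 0.19). At week 4, 3 were higher and 0 lower: Eif2ak3, which codes for PERK (0.99 ± 0.28, adjusted p = 0.027), Ppp1r15b (0.68 ± 0.21) and Tmbim6 (0.63 ± 0.19). Of the other 3 eIF2α kinases, 1 fell at week 2, the interferon-induced Eif2ak2 (-1.12 ± 0.33, adjusted p = 0.0167), and the haem-regulated Eif2ak1, named after its value was seen, did not pass (0.52 ± 0.26, adjusted p = 0.171).

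Of 29 ATF4 and CHOP targets tested, 10 were higher and 0 lower at week 2, where 15.9% of all genes were called (median 0.75 beside -0.03 over all genes, and 26 of 29 above 0 beside 48.3% of all genes). At week 4, 8 were higher and 0 lower, where 6.08% of all genes were called (median 0.27 beside -0.04). This list, like the others, was chosen with earlier results of these data known, so its contrast with all genes is a description. The largest changes were those of Jdp2, Cebpb, Sesn2, Shmt2 and Slc7a11. Jdp2, a bZIP repressor, stood at 2.24 ± 0.25 at week 2 and 2.52 ± 0.25 at week 4. Cebpb, a bZIP factor that also has a part in granulocyte development, stood at 1.67 ± 0.24 and 1.73 ± 0.24. Sesn2, an inhibitor of mTORC1, stood at 1.5 ± 0.46 and 1.70 ± 0.46. Shmt2, a mitochondrial enzyme of serine metabolism, stood at 1.34 ± 0.30 at week 2. Slc7a11, the cystine transporter, stood at 2.03 ± 0.39 at week 4. The classical targets Asns (0.84 ± 0.33, adjusted p = 0.0775), Trib3 (1.09 ± 0.44, adjusted p = 0.0903), Chac1 (0.21 ± 0.60, adjusted p = 0.847) and Atf3 (0.11 ± 0.27, adjusted p = 0.823) did not pass at week 2; they were named here after their values were seen. Neutrophil markers rose in the same weeks, as given above, and their part was not tested.

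The ER machinery made up the last 3 lists. Of 27 other ER chaperones and folding enzymes, 2 were higher and 1 lower at week 2: Dnajb11, a co-chaperone of BiP (0.87 ± 0.24), P4hb, the protein disulfide isomerase (0.54 ± 0.17), and the thioredoxin-related Tmx1 (-0.79 ± 0.19). None of them was called at week 4 in edgeR, where 3 had an unadjusted p below 0.05. Of 30 genes of ER-associated degradation, 7 were higher and 0 lower at week 2, led by Aup1 (0.85 ± 0.18), Nploc4 (0.78 ± 0.20), Edem2 (0.73 ± 0.25) and Os9 (0.71 ± 0.19), and 1 was higher at week 4 (Aup1, 0.60 ± 0.18). Of 36 genes of translocation, glycosylation and ER to Golgi transport, 6 were higher and 1 lower at week 2, among them the cargo receptors and coat-associated proteins Kdelr1 (0.95 ± 0.23), Surf4 (0.87 ± 0.14) and Tmed10 (0.81 ± 0.18) against the translocon subunit Sec62 (-0.94 ± 0.21), and 2 were higher at week 4, Surf4 (0.54 ± 0.14) and Tmed2 (0.53 ± 0.15). These 3 lists had medians of 0.24, 0.30 and 0.25 in the first comparison (week 2) and of 0.17, 0.10 and -0.03 in the second (week 4), beside -0.03 and -0.04 over all genes. Their counts at week 2, 3 of 27, 7 of 30 and 7 of 36, lay near the 15.9% called among all genes.

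**Figure D4:**
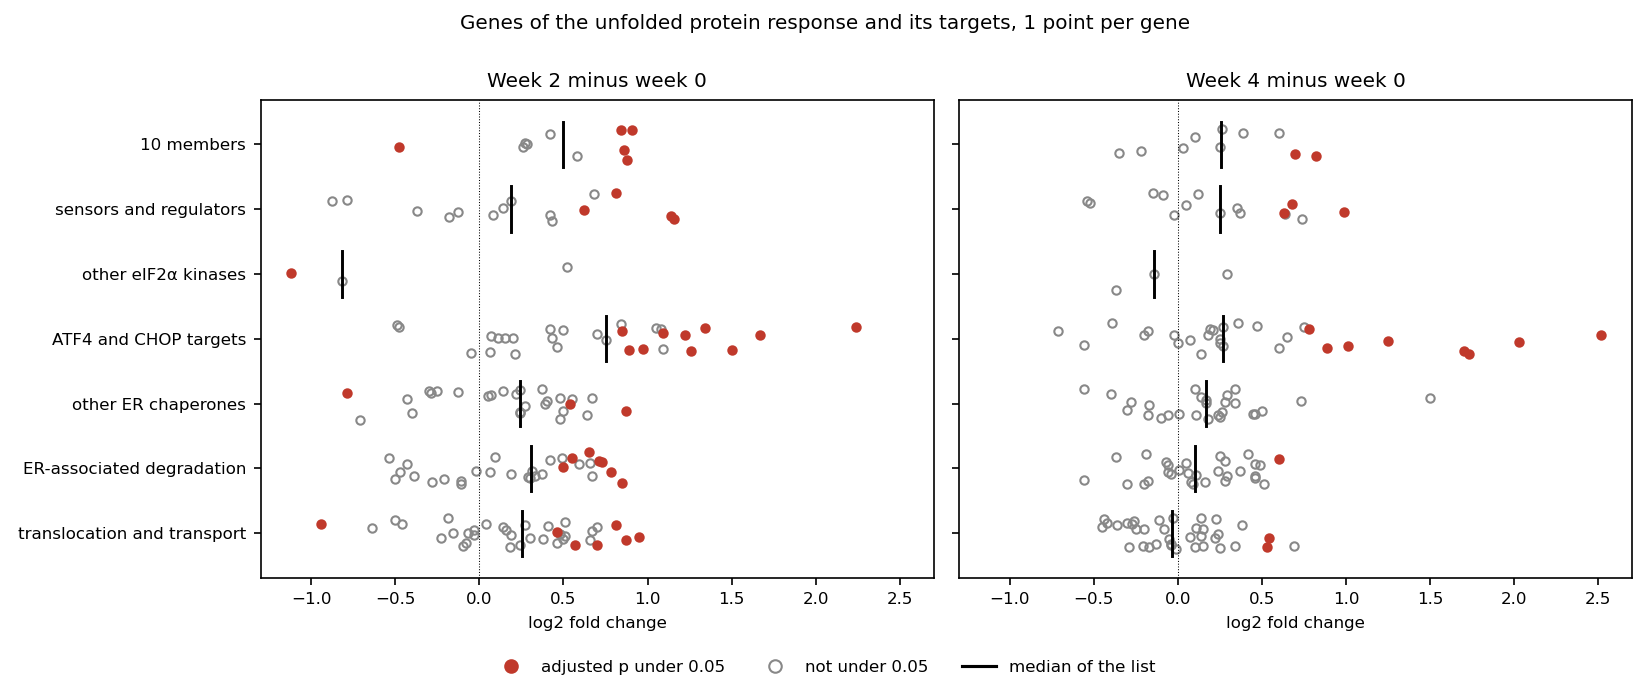
Each point is 1 gene of the 10 members or of 1 of the 6 lists (y axis), placed at its log2 fold change (x axis) at week 2 (left) or week 4 (right) against week 0; filled red points have an adjusted p below 0.05 and the black bar is the list's median. The ATF4 and CHOP targets reach farthest to the right, with Jdp2 at 2.24 and 2.52.

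Several members varied together over the 36 libraries. The log2 CPM of Xbp1, Calr and Dnajb9 had Pearson r values of 0.86 (Xbp1 and Calr), 0.81 (Dnajb9 and Calr) and 0.79 (Xbp1 and Dnajb9), and 0.81, 0.75 and 0.74 after the group means were taken out. Hspa5 and Herpud1 had r = 0.64 (0.40 within groups), Hspa5 and Dnajb9 0.58 (0.55), Ddit3 and Calr 0.58 (0.64), and Xbp1 and Atf4 0.56 (0.53). By rank (Spearman) the value of Ddit3 and Calr was 0.40. Of the 45 pairs, 10 were over 0.5 and 37 were positive, with a median of 0.32 and a range from -0.28 to 0.86; Hsp90b1 and Pdia4 took part in all 8 negative pairs. Hsp90b1 and Hspa5 had r = 0.33 over all libraries and 0.64 within groups. These values are descriptions, since libraries share weeks, cell makeup and scaling.

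**Figure D5:**
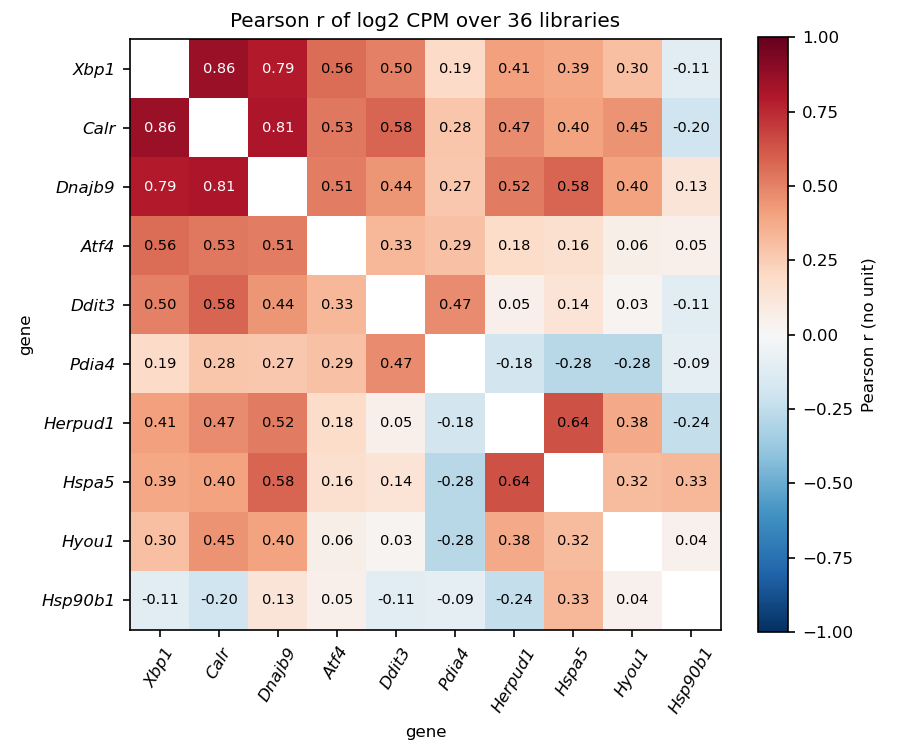
Pearson r of log2 CPM over 36 libraries for each pair of the 10 genes (both axes), red for positive and blue for negative values, with r printed in each cell. Xbp1, Calr and Dnajb9 form a block at 0.79 to 0.86, and Hsp90b1 and Pdia4 hold the negative values down to -0.28.

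The genes outside the pathway lists whose log2 CPM was most like the members' mean over the 36 libraries were H2-T23 (r = 0.89), Serp1 (0.88), Pck2 (0.86), Raly, Tmed9 and Tmem248 (0.83 each). Serp1 codes for a small ER protein tied to the translocon, Tmed9 for a cargo receptor between ER and Golgi, and Pck2 for the mitochondrial form of phosphoenolpyruvate carboxykinase. The genes most like Hspa5 were Zfand2a (r = 0.76), Cdkn1a (0.73) and Epha2 (0.72), the last at a median of only 0.383 CPM. Those most like Ddit3 were Psmd13 (0.84), Psmb5 (0.82), both of the proteasome, and Atp6v1e1 (0.81), a subunit of the vacuolar proton pump. By rank (Spearman) these values were lower, at 0.68, 0.67 and 0.70. The highest levels of the 3 genes were 185, 223 and 223 CPM, against medians of 13.2, 14.1 and 24.2. Ddit3 itself reached 25.4 CPM against a median of 2.97, so single high libraries weigh on these Pearson values.

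Library makeup moved with some members. The share of counts on ribosomal protein genes had r = 0.74 with Ddit3, 0.69 with Pdia4, 0.50 with Calr, 0.47 with Xbp1 and 0.43 with Dnajb9 over the 36 libraries, and -0.02 with Herpud1 and -0.04 with Hspa5. In the library with the largest such share (15.6%), replicate 1 of the week 2, 3 mg/kg scrambled group, Ddit3 stood at 25.4 CPM, Calr at 386, Xbp1 at 230, Hspa5 at 106 and Hsp90b1 at 29.3, while the other 2 libraries of its group had Ddit3 at 3.05 and 2.99, Calr at 74.9 and 121, and Xbp1 at 96.4 and 79.0. The same library had the highest summed platelet markers, 1230 CPM, against at most 564 in any other library, and Ddit3 had r = 0.54 with that sum. The part of this share and of platelets in the members' levels was not tested. Antisense or overlapping genes lie at Herpud1, Hsp90b1, Dnajb9 and Pdia4. None of them was among the genes tested, and whether each had a row of its own among the counts was not checked. Whether the counting used strand is not given in the sources used here.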

How the data were processed

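RNA from peripheral blood was sequenced in 36 libraries (12 groups of 3). The authors deposited raw read counts for 25856 RefSeq transcript rows, unnormalized; the reads were aligned to GRCm38 with HISAT2 2.0.5 and counted with featureCounts 1.5.0-p3, per the submitters' processing notes. The annotation release, strand setting, counting of mates and treatment of reads shared by isoforms are not given in the sources used here. All deposited counts were even numbers, so a count may stand for 1 of a pair of mates, and halved counts were tried as an alternative. RefSeq names matched 25650 rows and GENCODE a further 132. The 74 rows without a symbol were kept under their transcript names. They were left out only of the search for genes most like the members.

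Each gene was represented by its transcript row with the highest total, which gave 16812 genes, and 11953 passed filterByExpr (min.count 10, min.total.count 15). One model with a mean for each of the 12 groups was fitted to all libraries in edgeR 4.0.16 (TMM scaling, robust quasi-likelihood fit, R 4.3.3, limma 3.58.1), with 20 contrasts and Benjamini-Hochberg adjustment over all genes at 0.05. The script was tested on simulated data. CPM uses TMM library sizes, and log2 CPM a prior count of 2. DESeq2 1.42.0, RLE scaling, no filter, the mean over transcript rows, fits of the compared groups alone, replicate blocks, removal of libraries rich in ribosomal RNA or ribosomal protein reads, and leaving out each library were alternatives; those that removed the libraries over 10% ribosomal RNA or over 10% ribosomal protein reads were chosen after seeing the data. The depth of 6.82 M to 31.72 M gene counts per library left Ddit3 and Hyou1 with as few as 20 and 18 counts.

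The members and all lists were chosen with earlier results of these data known. The genes named are the 10 members, of each list up to 4 called genes with the largest change, and the genes most like the members' mean (6), Hspa5 (3) and Ddit3 (3) by Pearson correlation of log2 CPM, apart from genes said to have been named after their values were seen. Marker lists covered erythroid cells, neutrophils, monocytes, B, T, NK and plasma cells, platelets, and eosinophils with basophils. Calls among the neutrophil markers are given above. Of the other marker lists, erythroid markers had 2 of 10 higher and 2 lower at week 2. Monocyte markers had 1 of 8 higher in each week, and B cell markers 2 of 8 lower in each week. Platelet markers had 1 of 7 lower at week 2, and T cell and eosinophil and basophil markers none. For plasma cells 1 of 8 markers was lower at week 4, and for NK cells 3 of 6 were lower at week 2.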

Additional observations from a re-analysis of the deposited data

Results flagged for a closer look

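Within each arm and week, the level of each member was examined over its 6 libraries for a value far from the others, by Dixon's criterion (gap to the nearest value, over the range, above its 95% critical value). This picked out 6 of 60 sets, each by its highest value. The criterion flags about 1 in 20 by chance only for independent, normally distributed values. These sets share libraries and were taken on the CPM scale, so that rate does not hold for them.

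Replicate 1 of the week 2, 3 mg/kg scrambled group gave 3 of them: Xbp1 at 230 CPM (next highest 108), Ddit3 at 25.4 (next 4.67) and Calr at 386 (next 121). It was also the library with the largest share of ribosomal protein reads, 15.6%, whose part was not tested. Atf4 stood at 338 CPM in replicate 2 of the week 0, 2 mg/kg MIR29B group (next 195). Calr stood at 170 CPM in replicate 2 of the week 0, 3 mg/kg MIR29B group (next 82.6). Dnajb9 stood at 35.6 CPM in replicate 3 of the week 4, 3 mg/kg MIR29B group (next 14.6).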

How the results depend on the processing

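Of 209 counts of members called under the alternatives, 184 stayed within 1.5 times the reported one and 25 moved; for these the cause was not tested, beyond the fewer libraries that the removals leave. Of 4730 single values of members under the alternatives, leaving out libraries included, 181 had the other sign than the reported one, 34 of them by more than 1 standard error; in none was either value called. The largest such change was that of Ddit3 between the arms at week 2 and 3 mg/kg, from -1.72 to 0.15. Without the libraries over 5% ribosomal RNA, 1 member was called at week 2 and 1 at week 4 against week 0, 0 at either week in the MIR29B arm and 0 at week 2 in the scrambled arm. Without the 2 libraries over 10%, the counts were 3 at week 2, 1 in the MIR29B arm at week 4 and 0 in the scrambled arm at week 2. Without the libraries over 10% ribosomal protein reads they were 2 at week 2, 0 at both weeks in the MIR29B arm and 0 in the scrambled arm at week 2. In the MIR29B arm at week 4, RLE scaling gave 1, the mean over transcript rows 1, the compared groups alone 1 and no filter 0. In the scrambled arm at week 2, no filter gave 2 (Dnajb9 and Calr) and the compared groups alone 0. DESeq2 called 1 between weeks 4 and 2, 2 in the MIR29B arm at week 2, 5 in the scrambled arm at week 2 and 1 there at week 4.

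Replicate numbers were shared across groups. Same-numbered libraries of an arm and dose had correlations of their deviations from -0.41 to 0.33 (median 0.04, 11 of 36 pairs over 0.1), so the numbers were not taken to pair them. With the replicate block, 0 members were called in the scrambled arm at week 2; with the block within arm and dose, 0 there and 1 in the MIR29B arm at week 4.

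Leaving out each library in turn gave 4 to 6 members at week 2, 2 to 3 at week 4, 0 to 1 between weeks 4 and 2, 1 to 3 and 1 to 2 in the MIR29B arm at weeks 2 and 4, 0 to 4 in the scrambled arm at week 2, and 0 to 0 elsewhere. Over all genes, calls ranged over the alternatives from 688 to 2567 at week 2 (1896 reported), 281 to 1207 at week 4 (727), 0 to 625 between weeks 4 and 2 (139), 91 to 1128 and 79 to 782 in the MIR29B arm (642 and 361), and 0 to 1019 and 28 to 144 in the scrambled arm (370 and 51). Between the arms DESeq2 called 19 genes at week 0 and 78 at week 2. For the doses of week 2 apart it called 46 (2 mg/kg) and 5 (3 mg/kg). The reported edgeR fit called 0 in each of these. Without the low-count filter edgeR called 14 at week 0, 16 at week 2, and 6 (2 mg/kg) and 1 (3 mg/kg) at week 2. With 1 library left out it called up to 19 at week 0 and up to 11 at week 2. The compared groups alone gave 1 at week 4 and 3 mg/kg.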
